A study of Homo sapiens with 8 samples.

Results

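The proteasome genes described here are the 51 gene symbols named PSMA, PSMB, PSMC, PSMD, PSME, PSMF or PSMG with a number, together with POMP, NFE2L1 and ADRM1, out of 25268 symbols in the deposited tables. Antisense names and PSMC3IP, 4 symbols in all, were left out by the naming rule. The rule reads names only, but the set was proposed with earlier results of these data known. The set holds 8 alpha subunits and 7 standard beta subunits of the 20S core, 3 interferon-inducible beta subunits, the thymus-specific subunit PSMB11, 10 subunits of the 19S base, 8 of the 19S lid, 3 chaperones of base assembly, 5 factors of core assembly, 5 activators and inhibitors, and the transcription factor NFE2L1.

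Polyadenylated RNA of 2 human fibroblast lines, described by the labels as population controls, was sequenced in cells that had received a small interfering RNA (siRNA). SUPT4H1 encodes a small subunit of DSIF, a factor that binds RNA polymerase II during elongation. In line 1, 2 samples received a non-targeting control siRNA and 2 received siRNA against SUPT4H1, and line 2 was treated alike, which gives 4 samples per siRNA. All cells grew in DMEM with 10% FBS, penicillin and streptomycin, and all were transfected with Lipofectamine RNAiMAX. The siRNA dose, the time of harvest and the source of the replicates within a line are not given in the labels, so a p-value here reflects how far these particular samples spread, and that spread can be purely technical. With 2 lines, nothing was tested about fibroblasts in general.

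The proteasome degrades proteins that carry ubiquitin chains. Its core is a barrel of alpha and beta rings with the active sites on the inner beta rings, and a regulatory cap recognises, unfolds and feeds the substrate, the base carrying the ATPases and the lid the deubiquitinase. Cells exposed to interferon exchange the catalytic beta subunits for inducible ones and can place the PSME1 and PSME2 cap on the core, which changes the peptides offered to T cells, and cells whose proteasomes are inhibited raise subunit genes together through NFE2L1.

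The values are FPKM, fragments scaled by transcript length and library size, which are relative amounts within each sample. SUPT4H1 itself stood at 25.6 to 28.3 FPKM with control siRNA and at 1.37 to 1.74 FPKM with SUPT4H1 siRNA. The difference was -3.42 (SE 0.03) on the log2(FPKM + 1) scale, and the mean FPKM changed by -94.1%. All 10 fibroblast markers looked at were present. COL3A1, PDGFRA, PDGFRB and FAP were lower and S100A4 was higher in every SUPT4H1 siRNA sample than in the control samples of its line, and their part in the results was not tested. The 10 had summed levels of 14465 to 14771 FPKM with control siRNA and 13301 to 15029 FPKM with SUPT4H1 siRNA. Of 16 markers of epithelial, endothelial, blood and pigment cells, 15 were under 1 FPKM in every sample, and the exception was CD14 among the blood markers. Read depth is not given, and the precision of a value is known only from the deposited intervals, whose median half-width per member ran from 1.77 to 23.8% with a median of 5.99%.

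Most proteasome genes differed little between the siRNAs. Of the 51 genes, 49 reached a mean of 1 FPKM and were tested. Of these, 11 rose (PSMB3, PSMB8, PSMB9, PSMD1, PSMD2, PSMD3, PSMD14, PSME1, PSME2, PSME3 and PSMF1), 1 fell (PSMB4) and 37 did not pass (limma on log2(FPKM + 1) with line as a block, Benjamini-Hochberg adjusted p under 0.05 over all 11486 genes tested). The 12 calls are 24.5% of the tested proteasome genes, while 41.4% of all genes tested passed, 26.4% higher and 15.0% lower. The median log2 difference was 0.04 over the proteasome genes and 0.03 over all genes tested, and the largest in size among the proteasome genes was 0.22. Of the 37 that did not pass, 36 had a 95% confidence interval inside 0.2 on the log2 scale in either direction, and the exception was PSMG4. In whole-cell RNA of a culture, fewer cells of a kind and less RNA per cell cannot be told apart.

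The count of calls leans on the line block and on the scale. Without the block, 1 proteasome gene passed (PSMB9, adjusted p = 0.0462) and 5.26% of all genes. Median-ratio scaling moved the median of all genes tested from 0.03 to 0.00. On that scale 6 proteasome genes were called higher (PSMB9, PSMD2, PSME1, PSME2, PSME3 and PSMF1) and 4 lower (PSMA3, PSMB4, PSMB6 and PSMG3), beside 20% and 19.9% of all genes. Among the proteasome calls 91.7% were higher on the deposited scale and 60% after scaling. Over the calls of all genes these shares were 63.8% and 50.2%. Leaving out replicate 1 of SUPT4H1 siRNA in line 1 brought the 11 higher calls to 7. Higher calls over all genes also became fewer without that sample, so the loss was not particular to proteasome genes. Within both lines taken separately, the values of the 2 siRNAs did not overlap for 17 proteasome genes that were higher and 2 that were lower with SUPT4H1 siRNA. The same held for 28.7% and 16.5% of all genes.

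**Figure D1:**
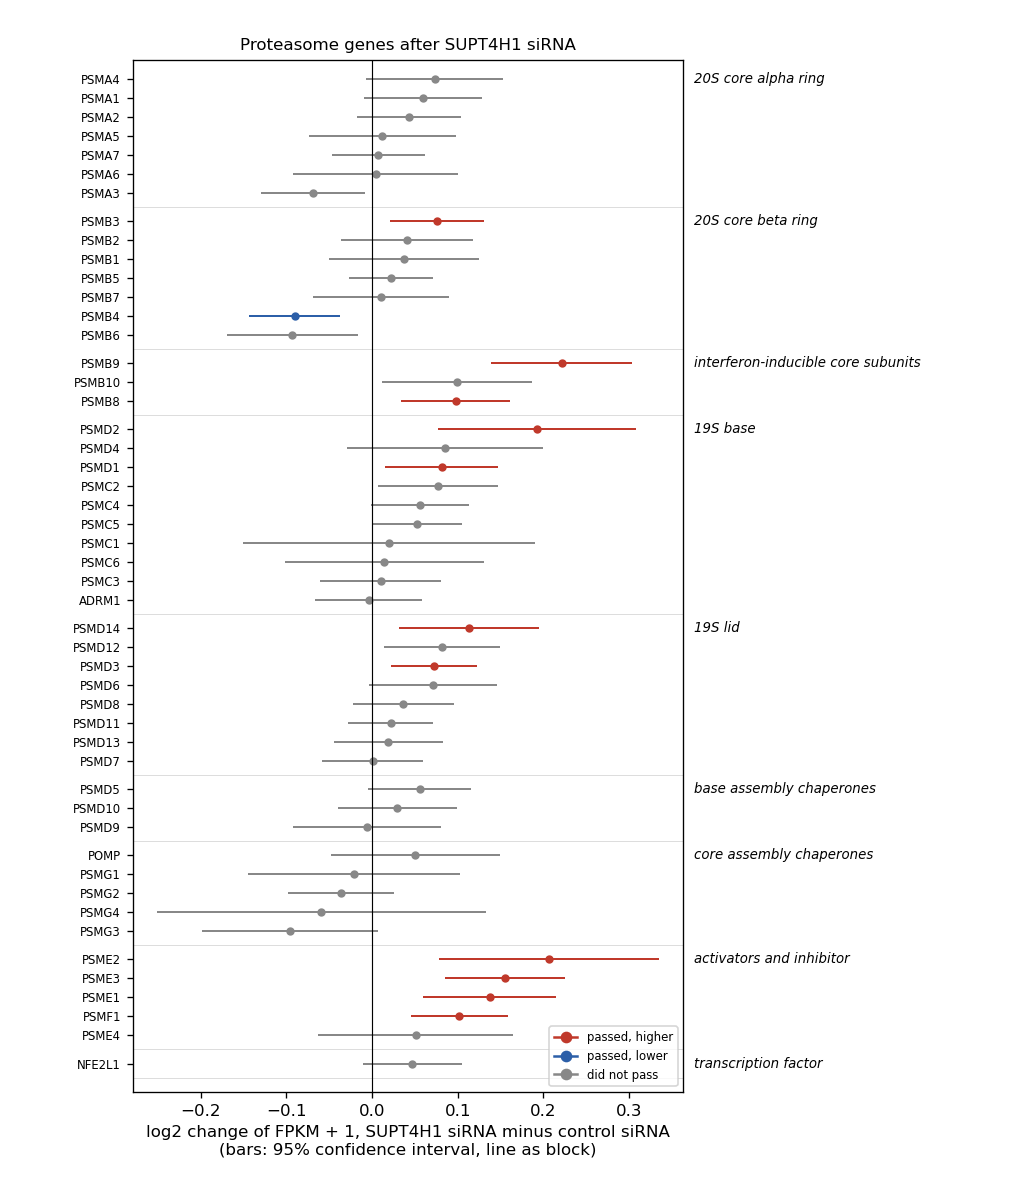
Log2 difference of each tested proteasome gene, SUPT4H1 siRNA minus control siRNA on the log2(FPKM + 1) scale (x axis), by class of gene (y axis); points are limma estimates with line as a block over 4 against 4 samples, and bars are 95% confidence intervals. PSMB9 at 0.22 and PSME2 at 0.21 lie farthest to the right, and the intervals of most core and assembly genes cross 0.

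The interferon-inducible subunits PSMB8, PSMB9 and PSMB10 replace the standard catalytic subunits PSMB5, PSMB6 and PSMB7, respectively. All 3 were measured in every sample, 2 of the 3 rose, beside 26.4% of all genes, and their median log2 difference was 0.10, beside 0.03 over all genes. After scaling 1 of the 3 was called higher. PSMB9 lies at chr6:32821938-32827628 of hg19. With control siRNA it reached 11.4 and 11.7 FPKM in line 1 and 10.9 and 10.7 FPKM in line 2. With SUPT4H1 siRNA it stood at 12.9 and 14.2 FPKM in line 1 and 13.3 and 12.4 FPKM in line 2. Every SUPT4H1 siRNA sample was therefore above every control sample. PSMB9 rose by 0.22 (SE 0.04, adjusted p = 0.00156), from 11.2 ± 0.47 to 13.2 ± 0.76 FPKM (SD, n = 4), and by 0.21 in line 1 and 0.23 in line 2. It is the proteasome gene that passed in every alternative in which it was tested.

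PSMB8, in the same stretch of chromosome 6 (chr6:32808494-32812712), was at 22.9, 23.0, 23.0 and 22.3 FPKM in the control samples. In the SUPT4H1 siRNA samples it was at 24.3 and 24.6 FPKM in line 1 and at 25.4 and 23.6 FPKM in line 2. The groups did not overlap, but the step was small: PSMB8 rose by 0.10 (SE 0.03, adjusted p = 0.0211). The call was lost after median-ratio scaling (adjusted p = 0.113), without replicate 2 of control siRNA in line 2 (0.0585) and without replicate 1 of SUPT4H1 siRNA in line 2 (0.0548). PSMB10 was at 17.2 and 18.6 FPKM in line 1 with control siRNA and 19.7 and 20.5 FPKM in its SUPT4H1 siRNA samples. In line 2 its values overlapped, at 18.2 and 18.4 FPKM with control siRNA against 19.5 and 18.2 FPKM with SUPT4H1 siRNA. Its difference of 0.10 (SE 0.04) did not pass (adjusted p = 0.0639), and did without replicate 2 of SUPT4H1 siRNA in line 2 (adjusted p = 0.0253).

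None of the 3 standard catalytic subunits passed in limma, and 1, PSMB6, had an unadjusted p under 0.05. PSMB6 was at 49.3 and 50.9 FPKM in line 1 with control siRNA and 52.7 and 57.0 FPKM in those of line 2. With SUPT4H1 siRNA it was at 46.1 and 47.3 FPKM in line 1 and 49.8 and 53.2 FPKM in line 2, so each line's mean was lower. Its difference of -0.09 (SE 0.03, adjusted p = 0.0508) lay at the threshold: it passed after scaling (adjusted p = 0.00896), without replicate 1 of control siRNA in line 2 (0.0267) and without replicate 2 of SUPT4H1 siRNA in line 2 (0.0392). PSMB6 also passed with a minimum mean of 5 FPKM (0.0453) and with a block by line and replicate number (0.0251). PSMB5 was at 60.0 to 68.5 FPKM in the control samples and 60.3 to 69.7 FPKM in the SUPT4H1 siRNA samples, a difference of 0.02 (95% interval -0.03 to 0.07). PSMB7 was at 48.1 to 52.9 and 48.4 to 53.1 FPKM, a difference of 0.01 (95% interval -0.07 to 0.09).

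Ratios of the inducible to the standard subunit do not depend on the scaling of a sample. PSMB9 over PSMB6 was 0.230 and 0.230 in the control samples of line 1 and 0.208 and 0.187 in those of line 2. After SUPT4H1 knockdown line 1 had ratios of 0.280 and 0.30 and line 2 had 0.267 and 0.233, above all control samples. The mean ratio was 26.1% higher, a log2 difference of 0.33. An exact 2-sided permutation test over the 36 arrangements within lines gave p = 0.0556, the smallest it can give, and 0.167 after adjustment over the 3 ratios. Over all 70 arrangements p was 0.0286, also the smallest possible, and 0.0857 adjusted. The PSMB8 to PSMB5 ratio was 5.63% higher (log2 0.08, exact permutation p within lines = 0.111) and the PSMB10 to PSMB7 ratio 6.72% higher (log2 0.09, exact permutation p within lines = 0.167). For both ratios the siRNA groups were apart in line 1, at 0.379 and 0.383 against 0.403 and 0.397 for PSMB8 over PSMB5 and 0.359 and 0.361 against 0.406 and 0.406 for PSMB10 over PSMB7. In line 2 the groups overlapped for both.

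**Figure D2:**
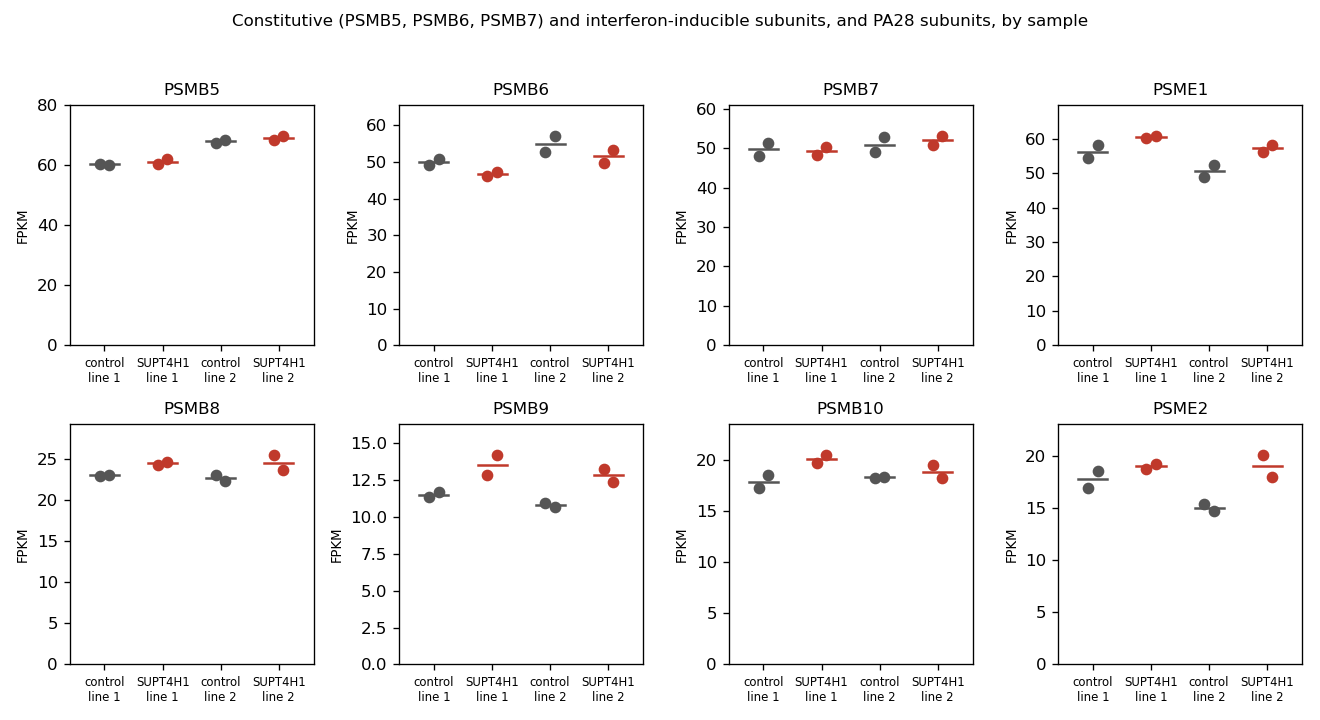
FPKM in each of the 8 samples (y axis) for the standard catalytic subunits PSMB5, PSMB6 and PSMB7, the inducible subunits PSMB8, PSMB9 and PSMB10, and the cap subunits PSME1 and PSME2, by line and siRNA (x axis); points are single samples and horizontal bars are means of 2. PSMB9 is above its control samples in both lines, and PSMB6 has lower means.

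Of the activators and the inhibitor, 4 of 5 measured genes rose, also after scaling, beside 26.4% of all genes, and the class median was 0.14, the highest of the classes. PSME1 and PSME2 form the interferon-inducible 11S cap and lie close to each other on chromosome 14. PSME2 (chr14:24612574-24615855) was at 17.0 and 18.6 FPKM in line 1 with control siRNA against 18.8 and 19.3 FPKM with SUPT4H1 siRNA. In line 2 the step was wider, from 15.4 and 14.7 FPKM to 20.1 and 18.0 FPKM. PSME2 rose by 0.21 (SE 0.06, adjusted p = 0.0178), by 0.09 in line 1 and 0.32 in line 2, and the difference between the lines did not pass (adjusted p = 0.127). The call was lost without replicate 1 or replicate 2 of control siRNA in line 2 (adjusted p = 0.0504 and 0.0514).

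PSME1 (chr14:24605367-24608176) was at 54.3 and 58.2 FPKM in line 1 with control siRNA and 60.1 and 60.8 FPKM in its SUPT4H1 siRNA samples. In line 2 it went from 49.0 and 52.4 FPKM to 56.2 and 58.2 FPKM. The siRNA groups were apart within each line and met only across lines, and PSME1 rose by 0.14 (SE 0.03, adjusted p = 0.0113). PSME3, the nuclear relative of these caps, rose by 0.15 (SE 0.03, adjusted p = 0.00405), from 22.6 to 23.9 FPKM in the control samples to 25.2 to 27.1 FPKM. PSMF1, which encodes the inhibitor PI31, rose by 0.10 (SE 0.02, adjusted p = 0.00993), from 15.5 ± 0.57 to 16.7 ± 0.78 FPKM (SD, n = 4). PSME4, the large cap PA200, did not pass over both lines, where its difference was 0.05. It was -0.05 in line 1 and 0.15 in line 2, and passed in line 2 alone (limma, adjusted p = 0.0318).

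Promoters were searched for short sequences bound by factors known to act on these genes. Promoter windows of 250 bases before to 50 bases from the gene start were taken from RefSeq (GRCh38.p14). Of the 51 genes 45 matched by symbol, with 56 windows, and both strands were searched. The core of the interferon-stimulated response element, which interferon regulatory factors bind, was searched as GAAA, any 2 bases and GAAA again. It was found in 7 genes and 12.5% of their 56 windows, beside 3.57% of 35116 windows of all genes. The 7 matches are shown, each with 10 flanking bases on both sides, on the strand of the gene and with the match in capitals, because 4 of them lie in PSMB8, PSMB10, PSME1 and PSME2.
PSMB8, chr6:32844032-32844061, minus strand: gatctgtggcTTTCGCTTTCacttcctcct
PSMB10, chr16:67936852-67936881, minus strand: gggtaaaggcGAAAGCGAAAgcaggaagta
PSME1, chr14:24136189-24136218, plus strand: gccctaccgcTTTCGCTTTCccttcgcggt
PSME2, chr14:24146619-24146648, minus strand: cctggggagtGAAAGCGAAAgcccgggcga
PSMG4, chr6:3258904-3258933, plus strand: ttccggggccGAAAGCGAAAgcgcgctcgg
PSMB4, chr1:151399495-151399524, plus strand: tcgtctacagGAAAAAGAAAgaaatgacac
PSMA4, chr15:78540155-78540184, plus strand: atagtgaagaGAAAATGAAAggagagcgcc

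In PSMB8 and PSME1 the letters GAAAGCGAAA lie on the opposite strand, which prints as TTTCGCTTTC. Of the 7 genes, PSMB8, PSME1 and PSME2 rose, PSMB4 fell, and PSMB10, PSMG4 and PSMA4 did not pass, with differences of 0.10, -0.06 and 0.07. Of the 36 tested genes with a promoter but no match, 8 rose and none fell, beside 26.4% and 15.0% of all genes. PSMB9 had no match to this core. Its window held 1 match to the antioxidant response element core TGACNNNGC, the kind of site that NFE2L1 binds with small MAF proteins, on the opposite strand. The PSMB9 bases from -180 to -31, counted from the gene start, are shown with that match in capitals.
PSMB9, chr6:32854012-32854161, plus strand: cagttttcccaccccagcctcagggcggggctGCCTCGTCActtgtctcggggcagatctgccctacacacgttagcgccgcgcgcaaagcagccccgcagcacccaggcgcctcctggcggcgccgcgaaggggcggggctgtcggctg

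The antioxidant response element core occurred in 16 of the 45 genes and in 30.4% of their windows, beside 13.3% of all windows. It was found in PSMA4, PSMB3, PSMB9, ADRM1, PSMC4, PSMC5, PSMD1, PSMD3, PSMD12, PSMD5, PSMD9, PSMG1, PSMG2, PSME1, PSME2 and PSME4. Of these 16, 6 rose (PSMB3, PSMB9, PSMD1, PSMD3, PSME1 and PSME2) and the median log2 difference was 0.06. Of the 27 tested genes with a promoter but no match, 5 rose and 1 fell, with a median of 0.04. Among all genes tested, 26.4% were called higher and 15.0% lower, with a median of 0.03. Genes with and without a match were not tested against each other. A match is a description of letters in these windows.

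The 20S core as a whole stayed close to its control level. Of the 14 standard alpha and beta subunits tested, 1 rose and 1 fell, beside 26.4% and 15.0% of all genes. The median log2 difference was 0.02, or -0.02 after median-ratio scaling. After scaling 0 of the 14 were called higher and 3 lower, beside 20% and 19.9% of all genes. The summed level of the 14 ran from 678 to 721 FPKM over all 8 samples. PSMB4, a beta subunit without an active site and the most abundant gene of the set, was at 117.7, 119.7, 119.9 and 123.6 FPKM in the control samples. With SUPT4H1 siRNA it was at 113.8, 111.0, 114.1 and 112.6 FPKM, with no overlap between the groups. PSMB4 fell by 0.09 on the log2 scale (SE 0.02, adjusted p = 0.0129), and this call was kept under median-ratio scaling (adjusted p = 0.00182).

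PSMB3, another beta subunit without an active site, was at 43.2 to 45.2 FPKM in the control samples and 45.4 to 47.2 FPKM in the SUPT4H1 siRNA samples, with no overlap. PSMB3 rose by 0.08 (SE 0.02, adjusted p = 0.0309), a call that scaling ended (adjusted p = 0.174). It was also lost without replicate 1 of either siRNA in line 1 (0.0854 without the control sample, 0.0783 without the other), either control sample of line 2 (0.0783 and 0.0524), or replicate 2 of SUPT4H1 siRNA in line 2 (0.0935).

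None of the 7 alpha subunits tested passed in the limma fit over both lines, where 1 had an unadjusted p under 0.05. PSMA3 had the lowest difference: it was at 39.2 and 38.0 FPKM in line 1 with control siRNA and 35.2 and 36.4 FPKM in its SUPT4H1 siRNA samples. In line 2 the values were 30.9 and 31.3 against 30.7 and 30.2 FPKM. The difference over both lines was -0.07 (adjusted p = 0.0635), and -0.10 after scaling, where it passed (adjusted p = 0.0109). In line 1 alone it was -0.11 and passed (limma, adjusted p = 0.0282). PSMA4 had the highest, with 45.0 and 44.8 against 48.4 and 48.8 FPKM in line 1 and 40.4 and 44.0 against 41.8 and 44.6 FPKM in line 2. That difference of 0.07 did not pass (adjusted p = 0.123), and did without replicate 2 of control siRNA in line 2 (adjusted p = 0.025). PSMA8, a testis form of an alpha subunit, and PSMB11 were under 0.05 FPKM in every sample and were not tested.

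In the 19S base, which holds the 6 ATPases PSMC1 to PSMC6, the scaffolds PSMD1 and PSMD2 and the ubiquitin receptors PSMD4 and ADRM1, 2 of 10 genes rose, a share below the 26.4% of all genes, and the median was 0.05. Of the ATPases none passed in the limma fit over both lines, where 2 had an unadjusted p under 0.05 (PSMC2 and PSMC5). The differences ran from 0.01 to 0.08. PSMC4 was called higher in line 2 alone (limma, 0.09, adjusted p = 0.0297). PSMC2, at 0.08, passed without replicate 1 of control siRNA in line 1 (adjusted p = 0.0381). PSMD2 was at 36 and 38.2 FPKM in line 1 with control siRNA and 40.0 and 37.9 FPKM in its SUPT4H1 siRNA samples, which overlap. In line 2 it stood at 37.1 and 37.2 FPKM with control siRNA and at 46.0 and 46.9 FPKM with SUPT4H1 siRNA, well apart. PSMD2 rose by 0.19 over both lines (SE 0.05, adjusted p = 0.0153). PSMD1 rose by 0.08 (SE 0.03, adjusted p = 0.0471), from 23.4 ± 0.60 to 24.9 ± 0.99 FPKM (SD, n = 4). Its call was lost after scaling (adjusted p = 0.195) and without any single sample (adjusted p between 0.0547 and 0.129) except replicate 1 of SUPT4H1 siRNA in line 2.

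The ubiquitin receptor ADRM1 was the base gene with the lowest difference. Its control samples were at 31.9, 32.9, 32.3 and 31.5 FPKM and its SUPT4H1 siRNA samples at 33.4, 31.4, 31.2 and 32.2 FPKM, a difference of 0.00 (95% interval -0.07 to 0.06). PSMD4 did not pass at 0.09 (adjusted p = 0.201), and passed at 0.14 without replicate 2 of SUPT4H1 siRNA in line 1 (adjusted p = 0.00708). PSMC1 was listed at 0.786 to 1.22 FPKM, while the other ATPases had means of 7.0 to 42.5 FPKM, although the proteasome holds 1 copy of each ATPase per base. GENCODE release 29 names 13 pseudogenes of PSMC1, more than of any other gene of the set, and their part in this low value was not tested.

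In the 19S lid 2 of 8 genes rose, which is 25%, about the share of all genes called higher, and the median was also 0.05. After scaling neither call was left. PSMD14, the deubiquitinase that frees the substrate of its ubiquitin chain, was at 17.2 and 18.1 FPKM in line 1 with control siRNA and 20.2 and 20 FPKM in its SUPT4H1 siRNA samples. In line 2 the values overlapped, at 19.4 and 19.1 against 19.4 and 20.5 FPKM. PSMD14 rose by 0.11 (SE 0.04, adjusted p = 0.0315), and the call was lost after scaling (adjusted p = 0.122). It was also lost without any single sample of line 1 (0.0817 and 0.0637 for the control samples, 0.0879 and 0.0777 for the others) and without replicate 2 of SUPT4H1 siRNA in line 2 (0.0748).

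PSMD11, a lid subunit that bridges core and cap, was at 12.3, 12.5, 11.6 and 11.5 FPKM in the control samples and 12.6, 12.6, 11.8 and 11.7 FPKM in the SUPT4H1 siRNA samples. The difference was 0.02 (95% interval -0.03 to 0.07). PSMD3 rose by 0.07 (SE 0.02, adjusted p = 0.0263), from 27.7 ± 1.26 to 29.2 ± 1.51 FPKM (SD, n = 4). Its call was lost after scaling (adjusted p = 0.211). It was also lost without replicate 2 of control siRNA in line 1 (0.0695) or line 2 (0.0641), replicate 1 of SUPT4H1 siRNA in line 1 (0.0767), or either SUPT4H1 siRNA sample of line 2 (0.0655 and 0.067). The other 6 lid genes had differences of 0.00 to 0.08. The highest of these, PSMD12, did not pass (limma, adjusted p = 0.0516). It did with a minimum mean of 5 FPKM (0.0408) and without replicate 1 of SUPT4H1 siRNA in line 2 (0.0296).

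The assembly factors gave no call in the limma fit over both lines, where none of the 8 had an unadjusted p under 0.05. In the limma fits by line, PSMD10 was called higher in line 1 (0.09, adjusted p = 0.0262). PSMG2 was called lower in line 2 (-0.08, adjusted p = 0.0376). The median was -0.04 for the 5 core factors and 0.03 for the 3 base chaperones. POMP, which is built into the new core and degraded when it is complete, was at 30.7 and 33.1 FPKM in line 1 with control siRNA and 32.3 and 34.7 FPKM in its SUPT4H1 siRNA samples. In line 2 it was at 37.1 and 41.8 against 40.7 and 39.9 FPKM, and its overall difference was 0.05 (95% interval -0.05 to 0.15). PSMG3 had the lowest difference, at 12.5, 11.5, 9.52 and 9.99 FPKM in the control samples and 11, 10.5, 9.97 and 8.89 FPKM in the SUPT4H1 siRNA samples. The difference of -0.10 (adjusted p = 0.118) passed after scaling (-0.13, adjusted p = 0.0434) and without replicate 1 of SUPT4H1 siRNA in line 2 (adjusted p = 0.0291). Among the base chaperones PSMD5 had 0.06 and PSMD9 -0.01, with 9.14 to 11.9 and 12.5 to 13.4 FPKM in the control samples. Genes that overlap antisense genes, such as PSMD5 and PSMG3, could not be separated from them, because the use of strand in counting is not given.

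NFE2L1, the transcription factor that raises proteasome genes, was at 60.2, 61.2, 66.1 and 66.4 FPKM in the control samples and at 60.3, 64.1, 68.7 and 69.6 FPKM in the SUPT4H1 siRNA samples. The lines differed more than the siRNAs, and the difference of 0.05 did not pass (95% interval -0.01 to 0.10). NFE2L1 is active only after it is cut out of the membrane of the endoplasmic reticulum, so its RNA level does not measure its activity. Of 15 tested genes of its processing and its partners, 9 rose and 3 fell, beside 26.4% and 15.0% of all genes, with a median of 0.11. The small MAF gene MAFF had the highest difference at 0.36 (SE 0.10, adjusted p = 0.0176), from 6.61 ± 0.27 to 8.88 ± 1.86 FPKM (SD, n = 4). That difference was 0.09 in line 1 (adjusted p = 0.128) and 0.63 in line 2, which differ (adjusted p = 0.000906). The call of MAFF was lost without any one of the 4 samples of line 2 (adjusted p = 0.0534 and 0.0525 without replicate 1 or 2 of control siRNA, 0.0513 and 0.0533 without those of SUPT4H1 siRNA). OGT, an enzyme that attaches N-acetylglucosamine to proteins, had the lowest at -0.31 (SE 0.05, adjusted p = 0.000973), from 46.3 ± 5.72 to 37.5 ± 8.19 FPKM, with -0.19 in line 1 and -0.43 in line 2 (adjusted p of the difference = 0.00868). DDI2, the protease that cuts NFE2L1, fell by 0.17 on the log2(FPKM + 1) scale (SE 0.04, adjusted p = 0.0128). Its FPKM went from 1.95 ± 0.15 to 1.61 ± 0.06, a change of -17.4%.

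Of 15 tested genes for proteins that associate with the proteasome, such as deubiquitinases and ubiquitin shuttles, 6 rose and 1 fell, which is 46.7% called, near the 41.4% of all genes, with a median of 0.06. Of 6 ubiquitin genes and ubiquitin-activating enzymes, 3 rose and 1 fell, beside 26.4% and 15.0% of all genes, with a median of 0.08. The genes that load proteasome products onto MHC class I, with their regulators, had the highest median of these lists, at 0.27, beside 0.03 over all genes. Of the 8 tested 7 rose and none fell, beside 26.4% of all genes called higher, and 6 were called higher after scaling. The response of 2 of the 8 differed between the lines (limma test of the difference). NLRC5, which rose over both lines, had 0.05 in line 1 and 0.39 in line 2 (adjusted p = 0.0319). ERAP1, which did not pass over both lines, had 0.15 and -0.04 (adjusted p = 0.0321). Without the line block, 3 of the 44 tested genes of these lists passed (UBQLN2, UBA1 and TAP1), beside 5.26% of all genes. TAP2 (limma, adjusted p = 0.151), TAPBP (0.0763) and B2M (0.109) did not. After scaling 18 of the 44 were called higher and 7 lower, beside 20% and 19.9% of all genes. On the deposited scale 25 were called higher and 5 lower, beside 26.4% and 15.0%.

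TAP1 and TAP2, the peptide transporter of the endoplasmic reticulum, flank PSMB8 and PSMB9 in the order TAP2, PSMB8, TAP1, PSMB9 on chromosome 6. TAP2 rose by 0.40 (SE 0.03, adjusted p = 1.63e-05), from 7.64 ± 1.35 to 10.4 ± 1.64 FPKM (SD, n = 4). TAP1 rose by 0.34 (SE 0.04, adjusted p = 0.000395), from 12.9 ± 0.21 to 16.6 ± 1.32 FPKM. TAPBP, which tethers the transporter to MHC class I, rose by 0.32 (adjusted p = 6.35e-05). B2M, the light chain of MHC class I, rose by 0.34 (adjusted p = 0.000352), from 1721 ± 88.4 to 2178 ± 20.4 FPKM. These 4 differences were each larger than that of any proteasome gene.

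**Figure D3:**
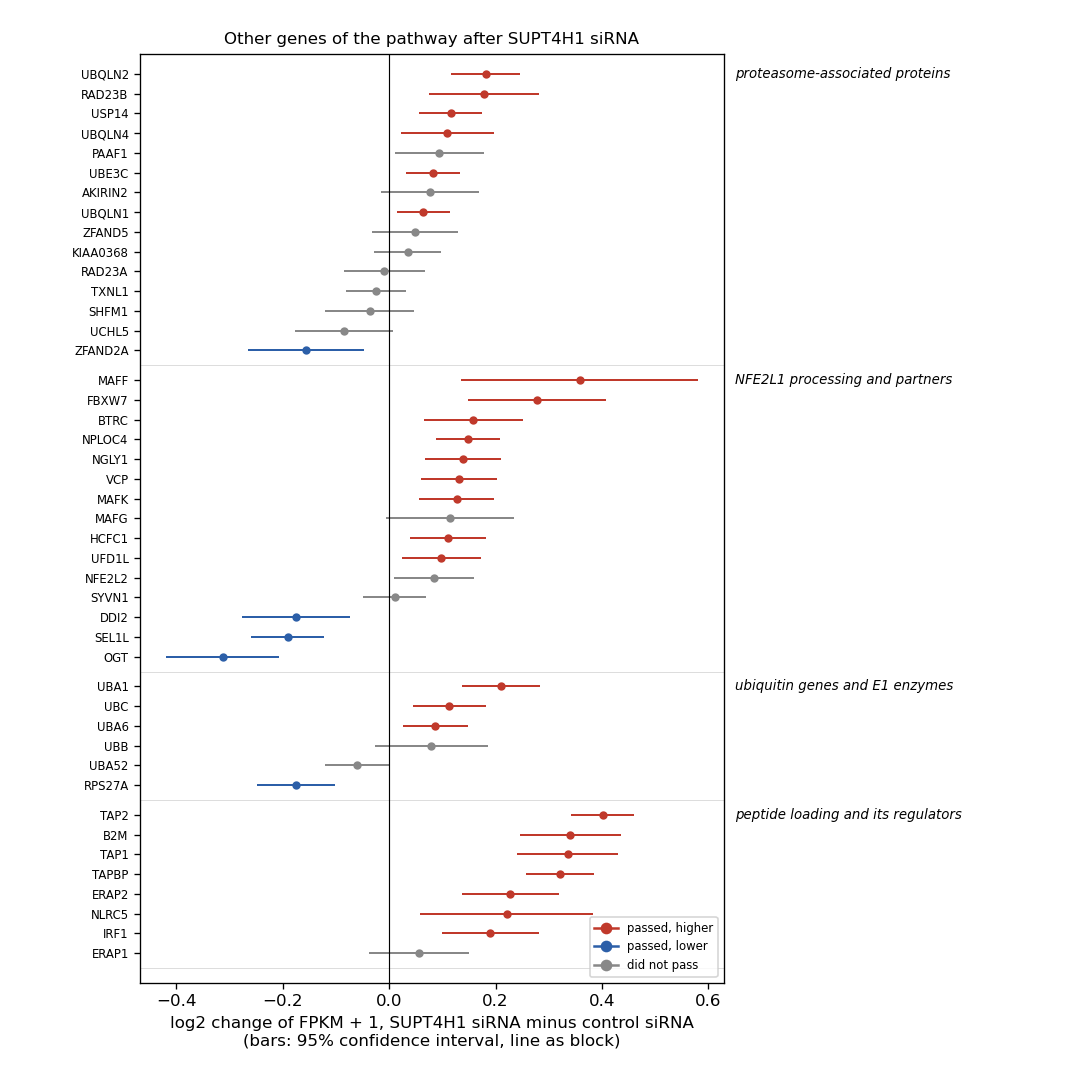
Log2 difference, SUPT4H1 siRNA minus control siRNA on the log2(FPKM + 1) scale (x axis), of each tested gene of the pathway lists (y axis), with limma 95% confidence intervals over 4 against 4 samples. In the peptide loading list 7 of 8 genes rose, with TAP2 at 0.40, while the other lists hold genes on both sides of 0.

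The lines gave different numbers of calls. In line 1 alone, 6 proteasome genes rose (PSMB9, PSMB10, PSMD10, PSMD14, PSME3 and PSMF1) and 1 fell (PSMA3), beside 29.4% of all genes called. In line 2 alone, 9 rose (PSMB8, PSMB9, PSMC4, PSMD2, PSMD6, PSME1, PSME2, PSME3 and PSME4) and 2 fell (PSMB4 and PSMG2), beside 41.8%. A direct test of the difference between the lines called 1 proteasome gene, PSMD2, and 8.87% of all genes. The PSMD2 difference was 0.07 in line 1 and 0.32 in line 2, which differ by 0.25 (SE 0.05, adjusted p = 0.0245). Medians over the 49 genes were 0.04 in line 1 and 0.05 in line 2. PSMB9 was among the most even, with 0.21 and 0.23 (adjusted p of the difference = 0.922).

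**Figure D4:**
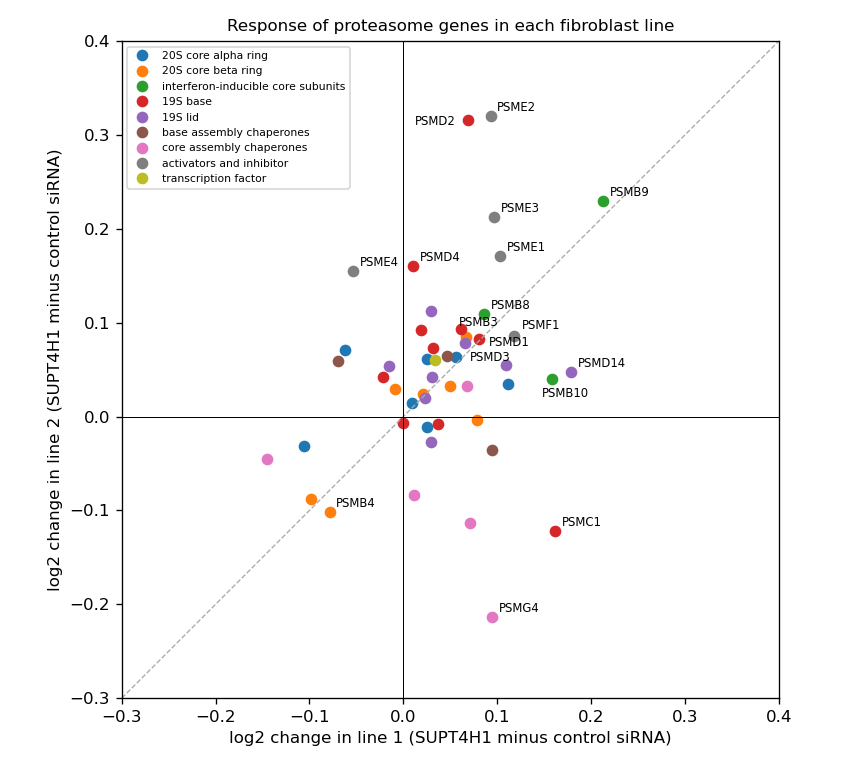
Log2 difference (SUPT4H1 minus control siRNA, log2(FPKM + 1) scale) in line 1 (x axis) against line 2 (y axis) for the 49 tested proteasome genes, coloured by class; each point rests on 2 against 2 samples and the dashed line marks equal responses. PSMD2 and PSME2 lie at 0.32 in line 2 and under 0.1 in line 1, and PSMB9 lies near the dashed line.

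Between the lines, the control samples themselves differed in single genes, given here as levels without a test. PSMA3, PSMD5 and PSMG3 were lower in line 2 by 0.30, 0.29 and 0.27 on the log2 scale: PSMA3, for example, had a mean of 31.1 FPKM there against 38.6 FPKM in line 1. PSMA5, POMP and PSMG4 were higher in line 2, by 0.33, 0.30 and 0.27. These steps between lines exceed every response of a proteasome gene to the siRNA averaged over both lines.

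Across the 49 genes the response did not follow gene size or level. The genomic span ran from 2360 to 138759 bases, and Spearman's rho between span and log2 difference was 0.04. With mean FPKM it was -0.04. Both are descriptions over genes that share the same 8 libraries.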

How the data were processed

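The authors deposited 1 table of FPKM per sample, with interval bounds, a status and coordinates of hg19 per the submitters' processing notes. Which aligner, quantification program, annotation and strand setting were used is not given in the sources used here. Each table has 27032 rows, and FPKM summed to 288293 to 305680 per sample. Rows of one symbol were summed: PSMB8 and PSMB9 each have 7 further rows on alternative haplotypes, all at 0. Genes with a mean of at least 1 FPKM and the status OK in all samples (11486) were tested with limma 3.58.1 in R 4.3.3, with a mean-variance trend, on log2(FPKM + 1), where the pseudocount of 1 shrinks the change of low genes. The model held siRNA and line, because the same lines received both siRNAs: deviations of same-line samples from their siRNA mean correlated at 0.713 to 0.81. Responses per line and their difference came from a model of 4 group means. P-values were 2-sided and Benjamini-Hochberg adjusted over all genes tested. Single values were tested by exact permutation in Python 3.11.15. The fit was tested on simulated data. The members, the lists and the rule for the genes given in every sample (the inducible subunits with their counterparts and caps, key regulators, the highest and lowest of each class, and other pathway genes past 0.3 on the log2 scale) were chosen with earlier results of these data known. Genes named beyond that rule, such as the other called members and DDI2, were chosen after their values were seen. A further gene of the peptide loading list and a further promoter motif are not reported here; neither was left out for its values.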

Additional observations from a re-analysis of the deposited data

Results flagged for a closer look

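In 3 of the 98 groups of 4 samples looked at (49 genes, 2 siRNAs), 1 sample stood far from the other 3, while chance alone flags about 1 in 20, or 4.9. That rate takes the 4 samples as exchangeable, and 2 samples from each of 2 lines are not. PSMB1 was at 79.6 FPKM in replicate 2 of control siRNA in line 2 and at 70.3 to 71.0 FPKM in the other control samples. Without that sample its difference of 0.04 became 0.08 and passed (limma, adjusted p = 0.0405). PSMB8 was at 22.3 FPKM in the same sample and at 22.9 to 23.0 FPKM in the other control samples. The median half-width of the deposited PSMB8 intervals was 7.45%, so this step is small beside the precision of a value. PSMD4 was at 20.8 FPKM in replicate 2 of SUPT4H1 siRNA in line 1 and at 24.2 to 24.3 FPKM in the other SUPT4H1 siRNA samples.

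PSMD2 differed between the lines in its response, by 0.25 on the log2 scale (limma test of the difference, adjusted p = 0.0245). Its 2 SUPT4H1 siRNA samples of line 2, at 46.0 and 46.9 FPKM, were above the other 6 samples, at 36 to 40.0 FPKM.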

How the results depend on the processing

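None of the 16 alternatives reversed a called gene. PSMB9 passed in all 15 in which it was tested (highest adjusted p 0.0462), and PSMB4, PSMD2, PSME1, PSME3 and PSMF1 in all but the fit with no replicate block. PSMB8 passed in 11 of 15. Of the 16, PSME2 passed in 13, PSMD3 and PSMD14 in 8 each, PSMB3 in 7 and PSMD1 in 5. PSMB3 and PSMD1 were lost without the mean-variance trend (limma, adjusted p = 0.0505 and 0.0654). PSMD1 was also lost without the filter on FPKM (0.0501). Without the line block, calls over all genes went from 3036 higher and 1724 lower to 405 and 199. Those of proteasome genes went from 11 higher and 1 lower to 1 and 0. A block by line and replicate number gave 8 higher and 2 lower. Over all genes, that block gave fewer higher and fewer lower calls than the main fit. Replicate numbers only share a number: deviations of same-numbered samples correlated at 0.196 in line 1 and 0.0846 in line 2. A minimum mean of 5 FPKM gave 12 higher and 2 lower, and median-ratio scaling 6 and 4. With 1 sample left out in turn, 7 to 10 were higher (7 without replicate 1 of SUPT4H1 siRNA in line 1) and 1 to 2 lower (2 without replicate 1 of control siRNA or either SUPT4H1 siRNA sample in line 2). Over all genes, leaving out any single sample gave fewer higher and fewer lower calls than the main fit. In total 11 proteasome genes that passed on neither scale changed sign with the scaling. Scaling also brought the genes whose response differed between lines from 1 to 2, adding PSMD10 (-0.14, adjusted p = 0.0498). Read depth is not given, so counting error is known only from the deposited intervals.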
